A study of Mus musculus with 6 samples.

Results

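The 8 genes described here write, erase or read DNA methylation: Dnmt1, Dnmt3a, Dnmt3b, Tet1, Tet2, Tet3, Uhrf1 and Mbd2. They were chosen by symbol from the table of counts, in which each of these symbols had 1 row, and they are 8 of its 29199 genes. All 8 passed the filter on low counts, as did 18321 genes in all. The data are total RNA sequencing of regulatory T cells (Treg) in 6 libraries, of which 3 were Treg with WT Tconv (the WT group) and 3 Treg with HP1α KO Tconv (the KO group). Groups and libraries are named for the genotype of the Tconv, so that WT replicate 1 and KO replicate 1 both hold WT Treg. All Treg were WT and came from B6 Foxp3-Thy1.1 mice, whose Foxp3-expressing cells carry the surface marker Thy1.1. They had been expanded in culture with recombinant human IL-2 (500 IU/mL), TGFb 1 and, for the first 3 days, anti-CD3/CD28 beads, followed by 5 to 7 days without beads. The irradiated hosts, either CD45.1+ B6 or C57BL/6 J mice, were given bone marrow from B6 and from semi-allogeneic B6D2F1 donors with these Treg, together with naive conventional CD4 T cells (Tconv), whose genotype was WT in one group and HP1α KO in the other, HP1α being a protein of heterochromatin. The HP1α deletion was made by a CMV-cre transgene on a floxed allele and passed through the germline, and controls were littermates on the same mixed 129/Sv and C57BL/6 background. Treg were sorted from the spleen 3 weeks after the graft, as CD4+ Thy1.1+ cells that carried CD45.2 and H-2Kb and lacked CD45.1 and H-2Kd. No label says that the libraries of a group came from separate animals or pools, so p-values measure the spread between these samples, which may be technical. The comparison asks whether the genotype of the Tconv was accompanied by a difference in the Treg that shared a host with them.

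DNA methylation in mammals is mostly found on cytosines of CpG dinucleotides. DNMT3A and DNMT3B place it on unmethylated DNA, and DNMT1, guided by UHRF1, which binds hemimethylated CpG, copies it onto the new strand behind the replication fork. The TET enzymes are iron and 2-oxoglutarate dependent dioxygenases that oxidize 5-methylcytosine, and MBD2 binds methylated CpG and brings the NuRD deacetylase and remodelling complex to it. In Treg, loss of methylation at an intronic enhancer of Foxp3 is a hallmark of a stable lineage, and TET proteins are needed for it. RNA levels of these genes are no measure of methylation, which was not measured in these libraries.

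The libraries held 87421755 to 119078882 counts. All 8 genes of a list of Treg markers were above 1 CPM in every library. Foxp3 was at 153.6 to 251.7 CPM (counts per 1e+06, after TMM scaling of the library sizes). Of 5 NK and CD8 T cell genes, 2 (Klra8 and Cd8a) stayed below 1 CPM in every library, and the 5 summed to 8.82 to 13.1 CPM. Sums of 6 plasma cell genes were 754.9 to 844.2 CPM, of 7 dendritic cell genes 54.1 to 80.9 CPM and of 6 B cell genes 14.4 to 25.8 CPM. Sdc1 and Mzb1 of the plasma cell list stayed below 1 CPM in every library. So did Flt3, Siglech and Clec9a of the dendritic cell list. Cbx5, which encodes HP1α, is intact in the sequenced cells, where it lay between 107.2 and 150.9 CPM. A pair of libraries stood apart from their groups. WT replicate 3 held 6686.6 CPM of 10 erythroid genes together, against 415.0 to 770.2 in the other libraries, and 1854.5 CPM of 10 neutrophil genes, against 42.8 to 231.8. Its sum of 8 macrophage genes was 184.7 CPM, against 16.0 to 51.5. KO replicate 2 differed most from the others of its group, with a chi-square over degrees of freedom of 142 and 177 against 29.6 between KO replicates 1 and 3. Log2 fold changes of the 8 genes are given without a library where they rested on it, as are those of several genes from related lists.

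All 8 genes were detected in every library, and their levels spanned a wide range. Per kilobase of annotated exons, in the WT group, Dnmt1 was highest at 31.0 CPM per kb ± 0.961 (SD, n = 3), ahead of Mbd2 at 21.6 ± 0.841 and Uhrf1 at 17.6 ± 4.74. The values of Mbd2 and Uhrf1 overlapped, since Uhrf1 alone ranged from 13.6 to 22.8 CPM per kb. Dnmt3a followed at 7.74 ± 0.129, and Tet2 and Tet3 overlapped at 5.22 ± 0.213 and 5.20 ± 0.215. Dnmt3b at 1.08 ± 0.0155 and Tet1 at 0.395 ± 0.00929 CPM per kb were lowest, and neither overlapped its neighbours. The order in the KO group was the same except that Tet3 at 5.31 ± 0.895 stood before Tet2 at 5.02 ± 0.0849, again with overlapping values. Part of this order depends on the gene length. Over the length of the canonical transcript, chosen as an alternative after the data had been seen, Mbd2 came first at 97.3 CPM per kb ± 3.80 in the WT group and Dnmt1 second at 44.5 ± 1.38, and Tet3 at 14.6 ± 0.604 stood above Dnmt3a at 13.5 ± 0.226. Dnmt3b and Tet1 were lowest by either length.

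**Figure D1:**
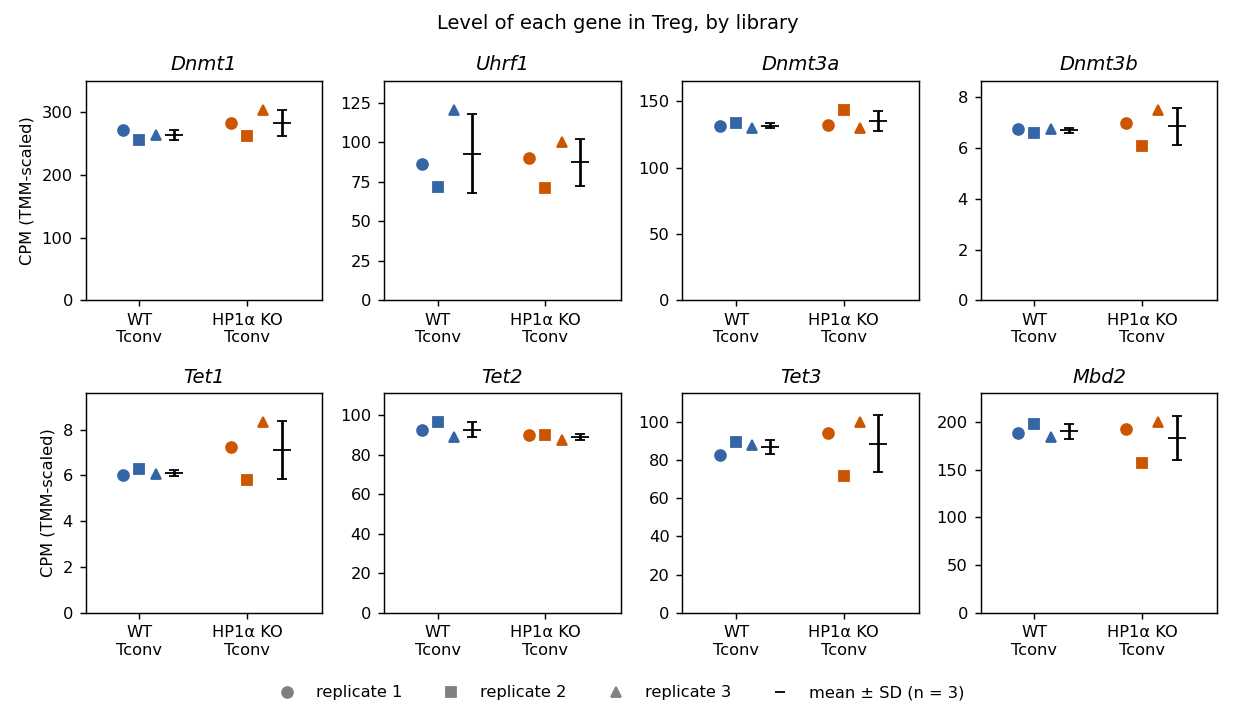
Level of each gene in TMM-scaled CPM (vertical axis, from 0) in the WT group (blue) and the KO group (orange), with 1 symbol per library and the mean ± SD of 3 libraries in black. The values of the groups overlapped for all 8 genes, and KO replicate 2 (orange square) was the lowest of 6 libraries for Uhrf1, Dnmt3b, Tet1, Tet3 and Mbd2.

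No difference between the WT group and the KO group was called for any of the 8 genes. The quasi-likelihood test of edgeR with Benjamini-Hochberg adjustment called 0 of 8 at an adjusted p-value under 0.05, where it called 0 of 18321 genes (0%). At an unadjusted p-value under 0.05 it found 0 of 8 genes, where 2656 of all genes tested (14.5%) passed. DESeq2 called 0 of 8, where it called 526 of the 12097 genes (4.35%) to which it gave an adjusted p-value, and limma-voom called 0 genes in all. The values of the groups did not overlap for 0 of 8 genes, against 4222 genes (23.0%). The mean was higher in the KO group for 5 genes by log2 fold change and lower for 3, with a median log2 fold change of 0.03, against -0.01 over all genes tested. The median size of the log2 fold change was 0.06 for the 8 genes and 0.14 for the 13249 genes averaging at least 100 counts. Every 95% interval included 0, and the intervals allowed changes between 0.638-fold and 1.48-fold. They were narrowest for Tet2, from 0.871-fold to 1.06-fold, and widest for Uhrf1, from 0.638-fold to 1.38-fold. The lowest count of any of the 8 genes in any library was 577, for Tet1, a relative counting error of 4.16%. For the low genes Dnmt3b and Tet1 this error exceeded the spread in the WT group, where the SD was 1.44% and 2.35% of the mean.

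**Figure D2:**
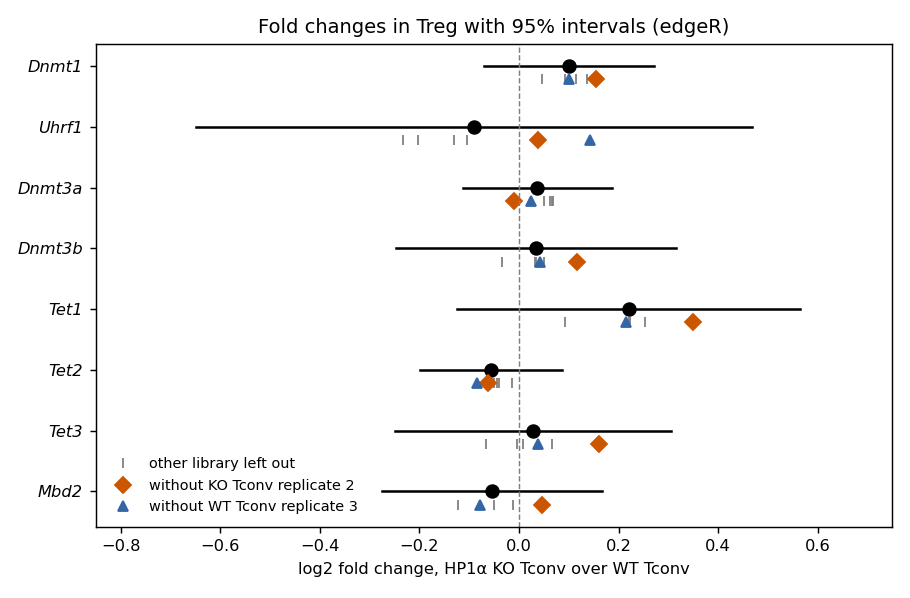
Log2 fold change of each gene, KO group over WT group, from edgeR (black circle) with its 95% interval (line), and below it the value after leaving out each library. Every interval crosses 0, and Tet1 at 0.22 and Dnmt1 at 0.10 were the highest values, both higher still without KO replicate 2 (orange diamond) and lower, at 0.09 and 0.05, without KO replicate 3.

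The maintenance genes Dnmt1 and Uhrf1 differed in their spread over the libraries. Dnmt1 (ENSMUSG00000004099, GRCm39 chromosome 9, 20817945 to 20871184, minus strand, 39 exons in the canonical transcript) was at 272.1, 255.8 and 263.0 CPM in replicates 1, 2 and 3 of the WT group. It was at 282.6, 261.6 and 304.2 CPM in the KO group. The groups overlapped through replicate 2 of the latter, while replicates 1 and 3 were above every library of the WT group. Means were 263.6 CPM ± 8.17 and 282.8 CPM ± 21.3 (SD, n = 3), and the log2 fold change was 0.10 ± 0.0744 (SE, adjusted p = 0.571, edgeR). It was 0.05 without KO replicate 3, with an unadjusted p of 0.56. Without KO replicate 2 it was 0.16, with an unadjusted p of 0.0356 and an adjusted p of 0.272.

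Uhrf1 (ENSMUSG00000001228, chromosome 17, 56610275 to 56630489, plus strand, 17 exons) was at 86.0, 71.8 and 120.5 CPM in the WT group and at 90.2, 70.9 and 100.2 CPM in the KO group. The values of both groups ran over nearly the same range, with WT replicate 3 alone above it. Means were 92.8 CPM ± 25.0 and 87.1 CPM ± 14.9 (SD, n = 3), and the log2 fold change was -0.09 ± 0.225 (SE, adjusted p = 0.881, edgeR). The direction rested on single libraries, since the log2 fold change was 0.14 without WT replicate 3 and 0.04 without KO replicate 2. Uhrf1 had the highest spread of the 8 genes, with an SD of 0.29 on the log2 CPM scale over 6 libraries, while the median over genes averaging at least 100 counts was 0.157 and the upper quartile 0.245. There were 0.316, 0.281 and 0.458 counts of Uhrf1 per count of Dnmt1 in the WT group and 0.319, 0.271 and 0.329 in the KO group. This ratio was highest in WT replicate 3. A processed pseudogene, Gm5648, shares 1592 bases with Uhrf1 at 96.671% identity, and it held 56 counts in all against 53439 for Uhrf1.

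Genes of the cell cycle and of blood cell precursors were also high in the library with the highest Uhrf1. In WT replicate 3, 24 replication genes summed to 1939.7 CPM of the library total, against 1353.9 to 1538.0 in the others, and 10 mitosis genes summed to 1841.4 CPM, against 1098.8 to 1397.7. Most of the higher mitosis sum was the proliferation marker Mki67, a gene of that list, at 1013.7 CPM of the library total there and at 478.3 to 629.8 CPM elsewhere. The other 9 mitosis genes summed to 827.6 CPM, against 620.5 to 776.9. At the low end, also in CPM of the library total, WT replicate 2 was lowest for Uhrf1 (70.37), for Mki67 and for both sums, with KO replicate 2 next for Uhrf1 (72.89), Mki67 and the mitosis sum. After TMM scaling KO replicate 2 was the lowest for Uhrf1 and Mki67. The erythroid sum ranged from 415.0 to 6686.6 CPM in the WT group and from 429.6 to 770.2 CPM in the KO group, with 10 of 11 genes in the table, and the neutrophil sum from 42.8 to 1854.5 and from 80.4 to 231.8 CPM, with 10 of 10. No gene of either list was below 1 CPM in every library. The sum of 8 macrophage genes was also highest in WT replicate 3, at 184.7 CPM against 16.0 to 51.5. The part of these cells or of cell division in the level of Uhrf1 was not tested, and in sorted bulk RNA a change in the share of dividing cells and a change in RNA per cell cannot be told apart.

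Dnmt3a was the steadiest of the de novo enzymes. Dnmt3a (ENSMUSG00000020661, chromosome 12, 3856007 to 3964443, plus strand, 23 exons) was at 131.8, 134.0 and 129.6 CPM in the WT group and at 132.3, 143.8 and 129.6 CPM in the KO group. All libraries except KO replicate 2 lay within a few CPM of each other, and that library was the highest. The log2 fold change was 0.04 ± 0.0654 (SE, adjusted p = 0.823, edgeR), and it was -0.009 without that library. The SD over 6 libraries was 0.056 on the log2 CPM scale, below the lower quartile of 0.103 over genes averaging at least 100 counts. Without KO replicate 2 the SD of Dnmt3a was 0.021.

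Dnmt3b (ENSMUSG00000027478, chromosome 2, 153490861 to 153529650, plus strand, 23 exons) was expressed at a low level, 6.73, 6.59 and 6.77 CPM in the WT group and 6.99, 6.07 and 7.51 CPM in the KO group. Both the lowest and the highest value belonged to the KO group, where the SD was 0.732 CPM against 0.0961 CPM (n = 3). The log2 fold change was 0.03 ± 0.123 (SE, adjusted p = 0.92, edgeR). It was -0.04 without KO replicate 3 and 0.12 without replicate 2. Counts of Dnmt3b ranged from 606 to 792 per library. Dnmt3c, a rodent paralog, shares 263 bases with it at 96.578% identity, and held 53 counts in all against 3980.

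Tet1 had the largest fold change of the 8 genes, from a low level. Tet1 (ENSMUSG00000047146, chromosome 10, 62640349 to 62744775, minus strand, 11 exons) was at 6.00, 6.27 and 6.06 CPM in the WT group and at 7.23, 5.81 and 8.34 CPM in the KO group. KO replicates 1 and 3 were above every library of the other group, and replicate 2 was below all of them. The log2 fold change was 0.22 ± 0.15 (SE) with a 95% interval from -0.12 to 0.56 (adjusted p = 0.539, edgeR). It was 0.09 without KO replicate 3. Without replicate 2 it was 0.35, with an unadjusted p of 0.0264 and an adjusted p of 0.245.

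Over all 6 libraries Tet2 varied least. Tet2 (ENSMUSG00000040943, chromosome 3, 133169436 to 133250900, minus strand, 11 exons) was at 92.4, 96.6 and 89.1 CPM in the WT group and at 90.0, 90.0 and 87.4 CPM in the KO group. The groups overlapped, and the highest library exceeded the lowest 1.11-fold. The log2 fold change was -0.06 ± 0.0623 (SE, adjusted p = 0.712, edgeR), and it stayed below 0 on leaving out each library, from -0.08 to -0.01. The SD over 6 libraries was 0.05 on the log2 CPM scale, the smallest of the 8 genes. Without KO replicate 2 it was 0.056, above Dnmt3a at 0.021 and Mbd2 at 0.051.

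From lowest to highest in TMM-scaled CPM, Tet3 took the same order of libraries as Tet1, at a higher level. The order of Tet1 was not firm, since its values in the WT group lay within counting error and, in CPM of the library total, WT replicate 3 (5.954) rather than KO replicate 2 (5.966) was lowest. Tet3 (ENSMUSG00000034832, chromosome 6, 83339355 to 83436066, minus strand, 12 exons) was at 82.8, 89.6 and 88.0 CPM in the WT group and at 94.1, 71.7 and 99.97 CPM in the KO group. The group with HP1α KO Tconv thus held both extremes, with replicates 1 and 3 above and replicate 2 below every library of the WT group. The log2 fold change was 0.03 ± 0.12 (SE, adjusted p = 0.931, edgeR). It was -0.07 without KO replicate 3, -0.004 without replicate 1, and 0.16 without replicate 2, with an unadjusted p of 0.0348 and an adjusted p of 0.269. Bola3, on the opposite strand, covers 1512 exonic bases of Tet3 (9.057%) and held 7620 counts in all against 51460, and how the counting used strand is not given in the sources used here.

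Mbd2 (ENSMUSG00000024513, chromosome 18, 70701260 to 70762203, plus strand, 7 exons), the reader of the set, was at 187.9, 198.2 and 183.8 CPM in the WT group and at 192.1, 156.5 and 199.9 CPM in the KO group. KO replicate 2 was the lowest, and the remaining 5 libraries lay close together. The log2 fold change was -0.06 ± 0.0964 (SE, adjusted p = 0.82, edgeR), and it was 0.05 without that library. Leaving that library out reduced the SD over the libraries from 0.129 to 0.051 on the log2 CPM scale.

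After TMM scaling, KO replicate 2 stood at an extreme for most of the 8 genes. It was the lowest of the 6 libraries for 5 of 8 genes and the highest for 1, while it was lowest for 23.7% and highest for 24.3% of the 13249 genes averaging at least 100 counts. Under scaling by total counts alone, an alternative added after the data had been seen, it was the lowest for 3 of 8. Leaving it out reduced the SD of log2 CPM by more than 1.5 times for 3 of the genes, Dnmt3a, Mbd2 and Tet3 (from 0.167 to 0.103). Leaving out KO replicate 3 did so for Dnmt1 (from 0.092 to 0.056) and Tet1 (from 0.201 to 0.123), and WT replicate 2 for Tet2 (from 0.05 to 0.029). KO replicate 3 was highest for 5 of 8 genes and lowest for 2, Dnmt3a and Tet2, against 20.5% and 19.6% of all those genes. In CPM of the library total, WT replicate 3 was lowest for Dnmt3a and Tet2 instead. The largest deviations from the mean of 6 libraries in replicate 2 were those of Uhrf1 (-0.32), Tet3 (-0.28) and Mbd2 (-0.25) on the log2 CPM scale, and Dnmt3a deviated by 0.11 the other way. Foxp3 was also lowest in this library, at 153.6 CPM against 200.1 to 251.7 CPM in the others. When it was left out, 3 of 8 genes (Dnmt1, Tet1 and Tet3, all higher in the KO group) had an unadjusted p-value under 0.05 by edgeR, where 3087 of 18799 genes (16.4%) did, and 0 of 8 passed adjustment. The remaining 2 libraries of the group then carry the comparison, and the result is given because 1 library decided it.

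**Figure D3:**
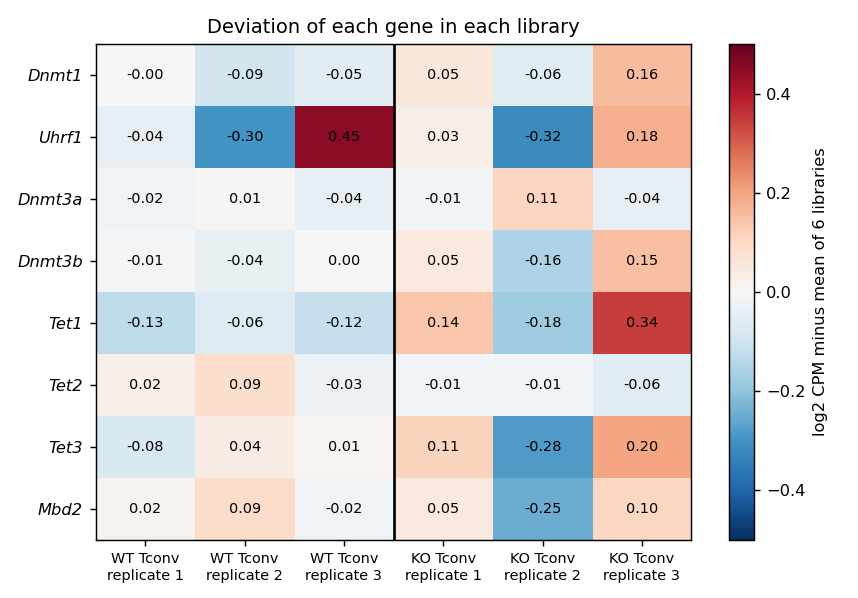
Deviation of each gene in each library from its mean over 6 libraries, on the log2 CPM scale (red above, blue below the mean, value printed in each cell). KO replicate 2 is below the mean for 7 genes by at least 0.013 and above it for Dnmt3a, and Uhrf1 reaches 0.45 in WT replicate 3.

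Within each enzyme family the shares of the groups overlapped, except that of Tet1. Among counts of the 3 Dnmt genes, Dnmt1 took 66.3%, 64.5% and 65.9% in the WT group and 67.0%, 63.6% and 68.9% in the KO group. Dnmt3a took 32.8% ± 0.904 and 31.9% ± 2.83 (SD, n = 3), and Dnmt3b took 1.66% ± 0.0275 and 1.61% ± 0.121. Among the 3 Tet genes, Tet2 and Tet3 shared most of the counts. Tet2 took 49.9% ± 1.21 and 48.5% ± 4.72, Tet3 46.8% ± 1.20 and 47.7% ± 4.35, and Tet1 3.31%, 3.26% and 3.31% in the WT group and 3.78%, 3.47% and 4.26% in the KO group. The share of Tet1 was higher in all 3 libraries of the KO group. In KO replicate 2 this was not a higher level of Tet1, which was lowest there at 5.81 CPM after TMM scaling. Tet3, part of the family total, was also lowest there, at 71.7 CPM. The counting error of Tet1 was up to 4.16% of a count. Its means were 3.29% ± 0.0295 in the WT group and 3.83% ± 0.4 in the KO group (SD, n = 3). This difference was not tested and was noticed after the values had been seen. Per kilobase of exons, Dnmt1 made 77.9% ± 0.661 and 78.6% ± 1.85 of its family, and Tet1 made 3.66% ± 0.0326 and 4.25% ± 0.431 of its own. Over the length of the canonical transcript the share of Tet1 was 1.78% ± 0.019 and 2.07% ± 0.178, that of Tet2 38.6% and 37.4%, and that of Tet3 59.6% and 60.5%.

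Genes that act with the 8 were taken from lists by function. In edgeR with the count filter no gene of any list passed after adjustment, while with no filter beyond 1 count the imprinted gene Impact did. So counts at an unadjusted p-value under 0.05 are given, to be set against 14.5% of all genes. Of 8 maintenance partners, 1 passed, 0 higher and 1 lower. It was Usp7, the deubiquitinase that stabilizes UHRF1 and DNMT1, with a log2 fold change of -0.20 ± 0.0862 (SE, adjusted p = 0.34, edgeR), which was -0.11 without WT replicate 3. Lig1, the ligase of replicating DNA, was at -0.20, and at -0.03 without WT replicate 3 and -0.09 without KO replicate 2. Cdca7 and Zbtb24, which belong with the remodeller HELLS, were at 0.19 and 0.14. Cdca7 was at 0.09 without WT replicate 2 and at 0.30 without WT replicate 1, and Zbtb24 at 0.08 without KO replicate 2. Of 3 de novo cofactors tested 0 passed, with Trdmt1, named as a methyltransferase but acting on tRNA, at 0.25 and Zfp445, a zinc finger protein of imprint control, at 0.10. Trdmt1 was at 0.13 without KO replicate 3, and Zfp445 at 0.06 without WT replicate 3 or KO replicate 1. The 24 replication genes and 10 mitosis genes gave 0 each, with medians of -0.12 and -0.05. Mcm6 at -0.17, E2f1 at -0.43, Cenpe at -0.17 and Cenpf at -0.29 were lowest in p among the genes below 0, and Chaf1b at 0.06, Gins2 at 0.07, Aurkb at 0.11 and Ccnb1 at 0.02 among those above. Without WT replicate 3, Mcm6 was at -0.11, E2f1 at -0.27, Cenpe at -0.05 and Cenpf at -0.10, and the genes above 0 were at 0.14, 0.22, 0.20 and 0.21. Chaf1b fell to 0.026 without WT replicate 2 and to 0.023 without KO replicate 3.

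Subunits of NuRD, the complex that MBD2 recruits, gave 2 of 12 at an unadjusted p-value under 0.05, both lower, against 14.5% of all genes. Rbbp4, a histone-binding subunit, was at 288.1, 279.8 and 286.0 CPM in the WT group and 249.1, 239.4 and 249.1 CPM in the KO group. Gatad2b, which links MBD proteins to the remodeller, was at 63.9, 63.8 and 63.7 CPM and at 52.9, 45.6 and 56.4 CPM. The groups did not overlap for either gene, and for 4 of the 12 in all, against 23.0% of all genes. Log2 fold changes were -0.21 ± 0.0594 for Rbbp4 and -0.31 ± 0.0861 for Gatad2b (SE), each with an adjusted p of 0.22 in edgeR, and 0.0885 and 0.0621 in DESeq2. Mta1 and Mta3, among its scaffold subunits, were at 0.17 and 0.10. The first was at 0.09 without KO replicate 3 and the second at 0.16 without WT replicate 2. In the same list Mta2 was at -0.005 and Gatad2a at 0.005, and the list's median was -0.04. Among 9 other genes of the MBD family and of zinc finger readers of methylated CpG, not all of whose products bind it, 1 passed at an unadjusted p-value under 0.05. It was Zbtb4, a zinc finger reader, at 0.17 ± 0.0718 (SE, adjusted p = 0.321, edgeR). Mbd3, the NuRD paralog of MBD2, was at 0.27, and 0.04 without KO replicate 2, where it reached 32.3 CPM against 19.2 to 22.8 in the other libraries. Zbtb33 was at -0.09 and Mbd4, a glycosylase, at -0.04. Mbd4 was at -0.075 without WT replicate 2 and at -0.002 without KO replicate 2.

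Downstream of the TET enzymes, oxidized cytosine is removed by base excision repair. Of 16 genes of active demethylation tested, 3 had an unadjusted p-value under 0.05, 2 higher and 1 lower, against 14.5% of all genes. Tdg, the glycosylase that excises the oxidized bases, was at 50.3, 49.3 and 48.4 CPM in the WT group and 47.2, 38.1 and 39.1 CPM in the KO group, with a log2 fold change of -0.25 ± 0.0921 (SE, adjusted p = 0.281, edgeR). Smug1, a uracil glycosylase, was at 6.18, 7.69 and 5.80 and at 8.94, 9.60 and 9.06 CPM, with 0.49 ± 0.134 (adjusted p = 0.215). Gadd45g, a stress-induced gene linked to demethylation, was at 18.1, 17.9 and 22.5 and at 24.4, 38.1 and 24.2 CPM, with 0.57 ± 0.201 (adjusted p = 0.287, edgeR). Groups did not overlap for these 3 of the 16 genes, against 23.0% of all genes. The value of Gadd45g rested in part on 1 library, since it was 0.32 without KO replicate 2. Gadd45a was at -0.48, and -0.14 without WT replicate 3. DESeq2 gave an adjusted p-value to 15 of the 16 and called 2, Smug1 (adjusted p = 0.039) and Gadd45g (adjusted p = 0.0407), against its 4.35% of all genes with one.

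Genes whose expression depends on methylation were the last lists. Germline genes silenced by promoter methylation stayed near absent. Of 16 listed, 11 were in the table and 2 passed the count filter, and no gene that did not pass had more than 51 counts in a library. Brdt was at 0.16 to 0.521 CPM and Syce1 at 0.68 to 1.82 CPM, with log2 fold changes of 0.11 ± 0.459 and -0.61 ± 0.348 (SE). The sign for Brdt depended on the fit, and Syce1 was at -0.30 without WT replicate 2 and -0.89 without KO replicate 2. Of 16 imprinted genes tested, 4 had an unadjusted p-value under 0.05, 1 higher and 3 lower, against 14.5% of all genes. Impact, a regulator of translation, was at 72.8, 83.3 and 79.3 CPM in the WT group and 60.9, 58.6 and 52.5 CPM in the KO group, and Plagl1, a zinc finger factor, at 8.38, 7.00 and 9.41 and at 5.01, 5.40 and 3.64 CPM. The groups did not overlap for either gene, and for 6 of the 16 in all, against 23.0% of all genes. Among these 6, Dlk1 was near the floor, at 0.167 to 0.282 CPM in the WT group and 0.050 to 0.143 CPM in the KO group. Log2 fold changes were -0.45 ± 0.0831 for Impact and -0.82 ± 0.183 for Plagl1 (SE), each with an adjusted p of 0.209 in edgeR. With no filter beyond 1 count edgeR called Impact, at an adjusted p of 0.0408. DESeq2 called both, with adjusted p-values of 0.00189 and 0.0025, and they were 2 of the 8 imprinted genes to which it gave one, against 4.35% of all such genes. Airn, the noncoding RNA that overlaps Igf2r, was at 0.35 ± 0.147 (adjusted p = 0.327, edgeR) and Igf2r at 0.10, which was 0.05 without WT replicate 3 and 0.16 without KO replicate 2. The third gene below 0, Zrsr1, named after its values had been seen, was at -0.23 ± 0.0849 (SE, adjusted p = 0.288, edgeR).

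**Figure D4:**
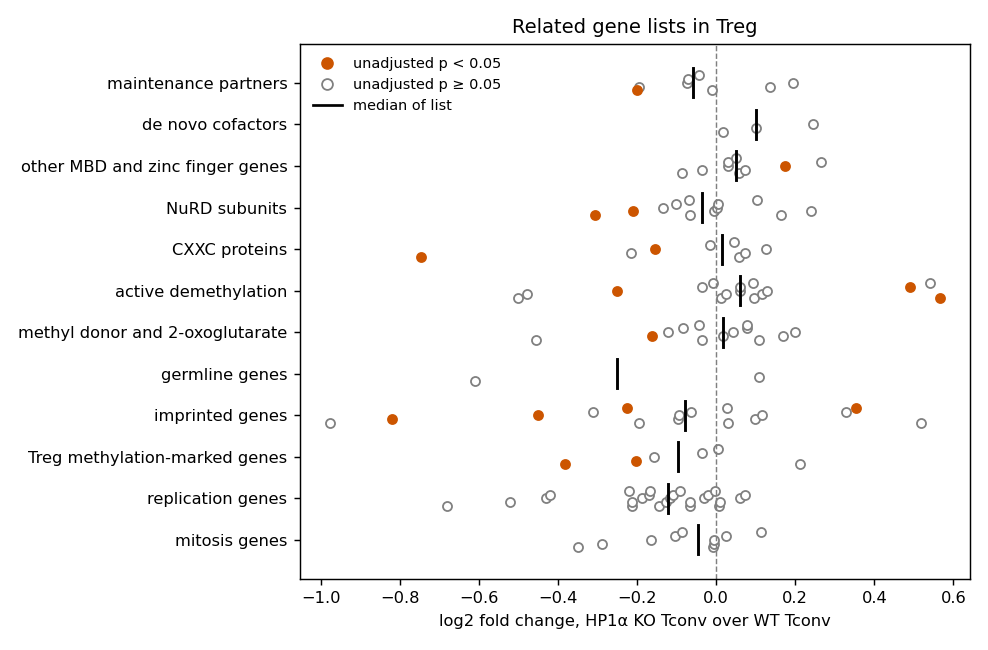
Log2 fold change, KO group over WT group, of the genes tested in each related list, with an unadjusted p-value under 0.05 in edgeR in orange, the others open, and the list's median as a black bar. No gene passed after adjustment with the count filter (Impact did with no filter beyond 1 count), and list medians lay between -0.25 for the 2 germline genes and 0.10 for the de novo cofactors.

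Of 6 genes marked by a Treg type of demethylation, 2 had an unadjusted p-value under 0.05, both lower, against 14.5% of all genes. These were Ctla4 and Ikzf4, and the groups did not overlap for these 2 of the 6, against 23.0% of all genes. Ctla4, an inhibitory receptor, was at 1246.0, 1349.4 and 1111.9 CPM in the WT group and 1027.5, 1018.4 and 797.9 CPM in the KO group, with a log2 fold change of -0.38 ± 0.118 (SE, adjusted p = 0.232 in edgeR and 0.0414 in DESeq2). DESeq2 thus called 1 of the 6, against its 4.35% of all genes with an adjusted p-value. Ikzf4, which encodes the Foxp3 partner Eos, was at -0.20 ± 0.0687 (adjusted p = 0.255, edgeR). Foxp3 itself was at 200.1, 221.8 and 209.2 and at 227.9, 153.6 and 251.7 CPM, with a log2 fold change of 0.01 ± 0.178 (adjusted p = 0.994, edgeR) whose sign depended on the fit. The 6 libraries of Foxp3, from lowest to highest, took the same order as those of Tet3 under either scaling. They matched those of Tet1 after TMM scaling, and both were noticed after the values had been seen. The order was not particular to these genes, since Kmt2b and Hrh4 also took it, and 346 genes had a Pearson's r above 0.9 with Tet3. The share of all genes with this order was not counted, and a link between Tet genes and Foxp3 was not tested. Tnfrsf18, which encodes the receptor GITR, was at 0.21, and 0.05 without KO replicate 2.

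The genes whose pattern over the 6 libraries was most like each of the 8 were found by Pearson's r of log2 CPM among the 13249 genes averaging at least 100 counts. These r values are descriptions over 6 libraries that share their depth and scaling. For Dnmt1 they were Gabarap (0.983), Sh2b3 (0.982) and Bicd1 (0.977), and for Uhrf1 Gm48766 (0.996), Wdfy4 (0.994) and Mpo (0.990). Mpo, the myeloperoxidase of neutrophils and their precursors, was at 13.4 CPM in WT replicate 3 and at 0.591 to 5.49 CPM in the others. For Dnmt3a they were Phyh (0.997), Tomm5 (0.991) and BC029722 (0.990), each highest in KO replicate 2 as Dnmt3a was. For Dnmt3b they were Nfic (0.999), Zc3h7b (0.996) and Gm37677 (0.995), and for Tet1 Ttc28 (0.997), Sh2d3c (0.995) and Cog1 (0.994). All 6 of these were highest in KO replicate 3, and all but Cog1 were lowest in KO replicate 2. For Tet2 they were Sar1b (0.990), Gpr137b-ps (0.989) and Elmod2 (0.979), and for Tet3 Kmt2b (0.995), Helb (0.994) and Hrh4 (0.993). Kmt2b encodes a methyltransferase of histone H3 lysine 4 with a CXXC domain that binds unmethylated CpG. For Mbd2 they were Nt5dc1 (0.999), Stambp (0.996) and Ube2h (0.995). The number of genes with r above 0.9 ran from 86 for Tet2 to 614 for Mbd2.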

How the data were processed

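Total RNA libraries (TruSeq Stranded) from sorted Treg were compared between Treg with WT Tconv and Treg with HP1α KO Tconv (n = 3 each, grouped by the labels). After trimming, the authors ran STAR against GRCm39 and Salmon within the nf-core pipeline. Each deposited value is an estimated count of a gene in a library, without normalization and already a whole number. Reads shared by overlapping or near-identical genes are split by a model. Intervals of counting error treat reads as independent molecules, which they are not.

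Counts were tested with edgeR 4.0.16 in R 4.3.3 (glmQLFit with robust = TRUE, glmQLFTest, TMM, filterByExpr), adjusted by Benjamini-Hochberg over all 18321 genes, with a threshold of 0.05. The 64 rows without a symbol (0.0231% of counts) were kept. Standard errors are the size of the log2 fold change divided by the root of F, and log2 CPM used a prior count of 2. Sums of marker lists are CPM of the library total. The script was tested on simulated data. Gene models came from GENCODE on GRCm39, and BLAST searched for transcripts of other genes alike to the 8 (at least 95% identity over at least 200 bases).

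The genes and lists were chosen with earlier results of these data known. Genes named from a list were, in each direction, the 2 with the smallest unadjusted p-value, and the 3 with the highest r for each of the 8 genes. Alternatives were DESeq2 1.42.0, limma-voom (limma 3.58.1), RLE scaling, total counts, no filter beyond 1 count, a replicate block, and each library left out in turn. Replicate pairs differed beyond sampling noise, which does not show that the libraries are independent animals. Each library counted as 1 sample.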

Additional observations from a re-analysis of the deposited data

How the results depend on the processing

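Under every alternative 0 of the 8 genes were called. The number of genes called across the table, 0 in edgeR, was 526 in DESeq2, 38 with no filter beyond 1 count, 1 with the replicate block, and 0 to 2 on leaving out each library. The number of the 8 genes at an unadjusted p-value under 0.05, 0 in edgeR, was 0 to 3 on leaving out each library, with 3 without KO replicate 2. The median log2 fold change of all genes stayed within 0.1 of 0 under every scaling. On leaving out each library the log2 fold change crossed 0 for Dnmt3a (-0.009 to 0.068), Dnmt3b (-0.035 to 0.116), Tet3 (-0.066 to 0.161), Uhrf1 (-0.232 to 0.143) and Mbd2 (-0.123 to 0.046), and kept its sign for Dnmt1 (0.046 to 0.155), Tet1 (0.093 to 0.349) and Tet2 (-0.084 to -0.013). Of the genes named from lists it crossed 0 for Zbtb33 (-0.156 to 0.020), Brdt (-0.161 to 0.482), Foxp3 (-0.140 to 0.189), Gins2 (-0.024 to 0.224), Aurkb (-0.003 to 0.200) and Ccnb1 (-0.115 to 0.208). It was also below 0 for Brdt in limma-voom (-0.094) and with the replicate block (-0.020), and for Foxp3 (-0.026 and -0.024). Among the 44 genes named from lists, the log2 fold change moved by over 1.5 times or changed sign for 17 without WT replicate 3, for 15 without KO replicate 2, and for 6 to 12 without one of the others. Among those that kept their sign, ranges were wide beside the value for Lig1 (-0.288 to -0.033), Mbd3 (0.044 to 0.381), Cxxc1 (0.019 to 0.215), Tnfrsf18 (0.048 to 0.313), Cenpe (-0.275 to -0.047) and Cenpf (-0.417 to -0.100). Impact was called in DESeq2 and with no filter beyond 1 count (adjusted p = 0.0408, edgeR). The causes were not tested.

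The replicate numbers were not shown to pair the samples. Correlations of same-numbered deviations were -0.042, 0.182 and 0.117, and WT replicates 1 and 3 each correlated best with another number (0.116 and 0.121). With the replicate block 0 of the 8 genes were called and 0 had an unadjusted p-value under 0.05. Counting error was at most 4.16% of a count for Dnmt3b and Tet1 and at most 1.2% for the other 6 genes.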

Other observations

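Of 13 genes that supply the methyl donor and the TET cosubstrate, for S-adenosylmethionine, the folate cycle and 2-oxoglutarate, 1 had an unadjusted p-value under 0.05 in edgeR, against 14.5% of all genes, and the list's median log2 fold change was 0.02, with values from -0.455 to 0.198. The groups did not overlap for 2 of the 13, Mat2b and Mtrr, against 23.0% of all genes. The gene past that threshold was Mat2b, the regulatory subunit of the S-adenosylmethionine synthase, at 145.0, 155.9 and 145.7 CPM in the WT group and 136.2, 135.5 and 127.2 CPM in the KO group, with a log2 fold change of -0.16 ± 0.0647 (SE, adjusted p = 0.308). Mtrr, which keeps methionine synthase active, was at -0.12 (adjusted p = 0.501, edgeR), Ahcy, which clears S-adenosylhomocysteine, at 0.11 and Shmt2, a mitochondrial enzyme of the folate cycle, at 0.20, which ranged from 0.105 to 0.302 on leaving out each library.

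Of 8 tested proteins with a CXXC domain, which binds unmethylated CpG, 2 had an unadjusted p-value under 0.05, both lower in the KO group, against 14.5% of all genes. Kdm2a, a demethylase of histone H3 lysine 36, was at 236.7, 238.7 and 235.8 CPM against 223.6, 207.8 and 207.0 CPM, with a log2 fold change of -0.16 ± 0.0621 (SE, adjusted p = 0.309, edgeR). Cxxc5 was near the floor, at 0.818 to 1.27 CPM against 0.453 to 0.792 CPM, with -0.75 ± 0.3 (adjusted p = 0.311, edgeR). The groups did not overlap for 3 of the 8, these and Kdm2b, named after its values had been seen, at -0.22 (adjusted p = 0.36, edgeR), against 23.0% of all genes. Cxxc1, a subunit of a histone H3 lysine 4 methyltransferase complex, was at 0.12 and Mbd1 at 0.06, and without KO replicate 2 they were at 0.02 and 0.03. Without KO replicate 3 they were at 0.215 and 0.118.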
